A study of Musa acuminata AAA Group with 4 samples.

Results

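Genes whose transcript level differed in the same direction in the leaf and in the root of nitrogen-limited banana plants were collected from 4 RNA sequencing libraries. A gene was kept when its log2 ratio of (FPKM + 1), low N over normal N, had the same sign in leaf and in root and was at least 1 in size in both. FPKM is the fragment number divided by gene length and by the size of the library. The higher library of each tissue also had to reach 2 FPKM. Of 31873 genes seen in any library, 19179 reached that level in both tissues and 278 were kept, 120 higher and 158 lower under low N. These 278 genes are called shared genes here. The leaf and root ratios themselves chose them, so their sizes are given as a description without a test.

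The plants were Cavendish banana (Musa acuminata AAA Group), fixed in clean sand in Hainan and grown for 60 days at 1 of 2 nutrient supplies. Normal-N plants received Hoagland complete solution and low-N plants a solution poor in nitrogen. Each group of plants was divided into an aboveground part, which held pseudostem as well as leaves and is called leaf here, and roots. Leaf and root of 1 supply thus came from the same group of plants, and the labels do not say how many plants entered a library. With 1 library per tissue and supply there was no replicate of any group, and the intervals beside folds hold counting error alone. In bulk tissue, fewer cells of a type and less RNA per cell cannot be told apart.

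The libraries held 4144048 to 4408992 expected fragments on 26796 to 29158 detected genes. The tissue labels were checked with 32 photosystem, antenna and RuBisCO small chain genes, whose FPKM summed to 54900 and 22500 in the normal-N and low-N leaf libraries but to 313 and 175 in the matching root libraries. Of these leaf markers, 11 were at 0 in the root library at normal N and 9 in the one at low N. A root list of 8 genes summed to 590 and 632 FPKM in the root libraries and to 46.4 and 94.4 FPKM in the leaf libraries. Most of these 8 were COBRA-like proteins. The others were a SCARECROW gene, a Casparian strip protein of the root endodermis and a nicotianamine synthase. Both lists came from genes that the authors had filtered for change.

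Plants take up nitrogen mainly as nitrate and ammonium. Nitrate is reduced to nitrite by nitrate reductase and to ammonium by nitrite reductase. Glutamine synthetase then fixes ammonium into glutamine, and glutamate synthase passes the amide nitrogen on to glutamate, the donor for most other amino acids. When nitrogen runs short, plants also draw on nitrogen held in protein, purines and amines, and leaf and root can respond very differently because roots meet the supply first.

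Most differences between the supplies were found in 1 tissue only by this size rule. Among the 19179 genes, 2065 were higher in leaf (10.8%) and 1075 lower (5.61%), while in root 555 were higher (2.89%) and 890 lower (4.64%). Those higher in both tissues were 0.626% of all genes, 5.81% of the genes higher in leaf and 21.6% of the genes higher in root. Those lower in both were 0.824% of all genes, 14.7% of the genes lower in leaf and 17.8% of the genes lower in root. Opposite calls were nearly as frequent, with 163 genes higher in leaf and lower in root (0.850%) and 80 the other way round (0.417%). Across the 19179 genes the leaf and root log2 changes had a Pearson r of 0.06 and a Spearman rho of 0.05. Over the 10170 genes at 10 FPKM or more in both tissues the Pearson r was 0.12. These correlations are across genes, which are not independent replicates, and the leaf and root libraries share their plants.

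**Figure D1:**
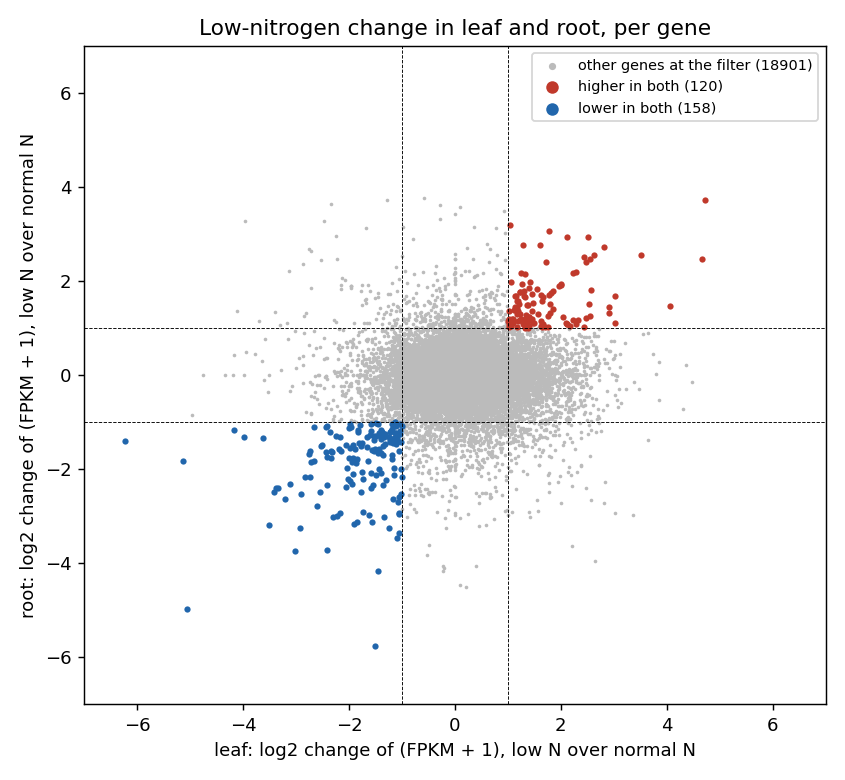
Log2 change of (FPKM + 1), low N over normal N, in leaf (x axis) and root (y axis) for the 19179 genes at 2 FPKM or more in both tissues, 1 point per gene. The 120 genes higher in both (red) and the 158 lower in both (blue) lie past the dashed lines at 1 and -1, and the cloud as a whole has no visible slope.

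A test of low N against normal N over both tissues was also fitted across 23266 genes, with tissue as a block. The quasi-likelihood test in edgeR called 0 genes at an adjusted p under 0.05. At an adjusted p under 0.1 it called 2 genes higher (0.0086%) and 6 lower (0.0258%), and 615 (2.64%) and 676 (2.91%) had an unadjusted p under 0.05. DESeq2 with the same block called 2 higher and 17 lower at an adjusted p under 0.05. The fit has 1 residual degree of freedom, and its spread is the disagreement between leaf and root, not a spread between plants. Of the 278 shared genes 182 entered the fit. Because these were chosen on the same contrast, for agreement between the tissues, no p of a shared gene is given.

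Among the genes of nitrogen assimilation, 3 enzymes of the glutamine and glutamate step were lower in both tissues. A chloroplast glutamine synthetase of the leaf isozyme type (Ma09_g16600) was at 85.9 FPKM in normal-N leaf, 24.7 FPKM in low-N leaf, 61.1 FPKM in normal-N root and 13.9 FPKM in low-N root. It was 3.48-fold lower under low N in leaf (95% interval 2.86 to 4.26) and 4.42-fold lower in root (3.45 to 5.72), so that the low-N libraries lay below the normal-N libraries of either tissue. A cytosolic glutamine synthetase (Ma08_g31320) stood at 19.0 and 7.49 FPKM in normal-N and low-N leaf and at 136 and 53.7 FPKM in the root libraries. Its folds were 2.56 lower in leaf (1.70 to 3.96) and 2.53 lower in root (2.19 to 2.94), although root held the higher level under both supplies. An NADH-dependent glutamate synthase (Ma07_g25920), the partner enzyme of that cycle, went from 47.6 to 22.7 FPKM in leaf and from 115 to 49.8 FPKM in root. That was 2.11-fold lower in leaf (1.90 to 2.33) and 2.33-fold lower in root (2.18 to 2.49). These genes had fractional expected counts in some library, so some of their fragments may have been divided among similar copies.

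The other nitrogen uptake and assimilation genes were not shared. Of the 22 genes of that list at 2 FPKM or more in both tissues, 3 were lower in both (13.6%), 0 were higher in both and 5 were higher in leaf and lower in root. Of all 2103 described genes at the same level, 6.37% were shared, 2.62% higher and 3.76% lower in both tissues, which is the background for each list count. Among the same described genes 3.85% were higher in leaf and lower in root. Over the 22 genes the median of the mean log2 change was -0.47, beside 0.05 over all 19179 genes and 0.48 over the described genes. Nitrite reductase (Ma09_g14720) was at 348 and 374 FPKM in leaf and at 199.2 and 8.11 FPKM in root, and the nodule-isozyme glutamine synthetase gene (Ma01_g15700) at 5.64 and 4.92 FPKM in leaf and 360 and 36.7 FPKM in root. In both genes the leaf libraries lay close together and the root libraries far apart. The second glutamate synthase gene (Ma08_g28590) was nearly confined to root, at 0.04 and 0.07 FPKM in leaf and 31.7 and 3.27 FPKM in root. A nitrate reductase (Ma09_g14900) was at 1052 and 906 FPKM in leaf and at 314 and 17.9 FPKM in root. Ammonium transporter 3 member 1-like (Ma05_g28430) showed the reverse, at 7.22 and 109 FPKM in leaf and 3.57 and 5.27 FPKM in root. The NAR2-type partner of nitrate carriers (Ma09_g01900) was at 1.24 and 22.1 FPKM in leaf and at 314 and 39.1 FPKM in root.

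**Figure D2:**
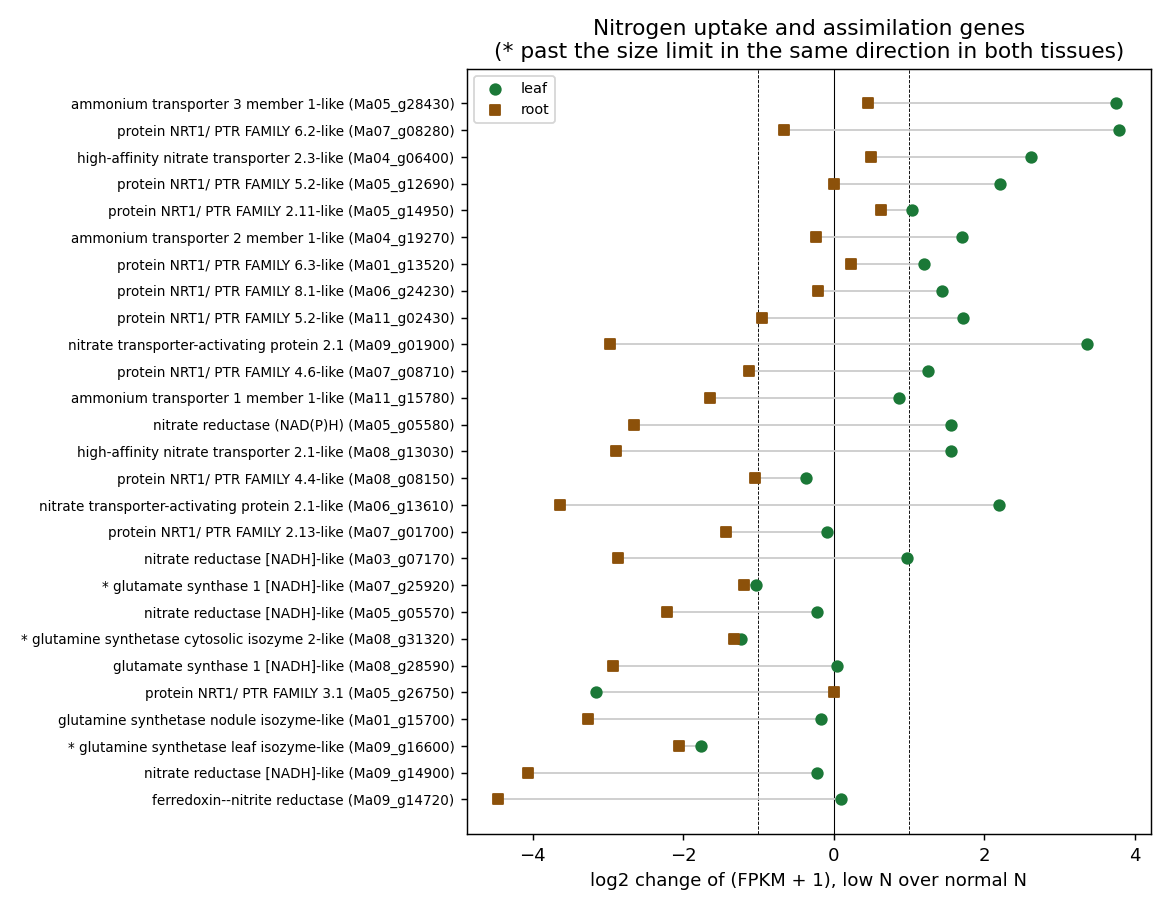
Log2 change of (FPKM + 1), low N over normal N, in leaf (green circles) and root (brown squares) for each described nitrogen uptake and assimilation gene with 10 FPKM or more in any library, with dashed lines at 1 and -1. The 3 starred genes of glutamine and glutamate synthesis have both points below -1, while the other genes have at least 1 point between the lines or points on opposite sides of 0.

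Further genes of nitrogen signalling and reuse were shared in either direction. NLP1-like (Ma05_g21510), of the family of NIN-like factors that control nitrate responses, was at 2.02 and 7.34 FPKM in leaf and at 3.48 and 9.19 FPKM in root. It was 3.63-fold higher in leaf (2.26 to 6.03) and 2.63-fold higher in root (1.83 to 3.85), the only shared gene among 6 genes of the list of LOB and NIN-like factors at 2 FPKM. Ureide permease 1-like (Ma03_g17330), a carrier of nitrogen-rich purine products, was at 5.29 and 19.0 FPKM in leaf and 9.08 and 19.8 FPKM in root. GABA transporter 1-like (Ma08_g07430) was at 5.62 and 17.3 FPKM in leaf and 1.83 and 5.14 FPKM in root. Both carriers were thus higher in each low-N library. Alanine aminotransferase 2 (Ma11_g08770), which exchanges amino groups between alanine and glutamate, was lower instead, at 24.1 and 9.01 FPKM in leaf and 112 and 39.7 FPKM in root. These 3 genes lie outside the naming rule and were chosen after their values were seen. On the list of amino acid and peptide transporters, none of the 13 genes at 2 FPKM was shared, and a cationic amino acid transporter (Ma07_g13810) missed the limit in leaf by little, with log2 changes of 0.99 in leaf and 1.78 in root.

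Amine oxidases, copper enzymes that release ammonia from amines, gave the most positive shared change of a described gene. A primary amine oxidase (Ma01_g13020) was at 8.94 FPKM in normal-N leaf, 263 FPKM in low-N leaf, 0 FPKM in normal-N root and 12.1 FPKM in the low-N root library. The fold in leaf was 29.3 (23.5 to 37.0). With a floor of 3 counts for the empty library the level in root was 39.2-fold higher. The lower limit of the counting interval of the root fold was 31.4. A second primary amine oxidase (Ma08_g14400) was at 59.2 and 125 FPKM in leaf and 7.41 and 32.1 FPKM in root, 2.11-fold higher (1.84 to 2.42) and 4.32-fold higher (3.07 to 6.19). A chloroplast copper-zinc superoxide dismutase (Ma10_g07820), which removes superoxide, was at 31.3 and 191 FPKM in leaf and 20.3 and 73.1 FPKM in root. That gene was 6.09-fold higher in leaf (4.84 to 7.74) and 3.60-fold higher in root (2.68 to 4.89).

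Of the 35 sulfur and metal handling genes at 2 FPKM in both tissues, 4 were lower in both (11.4%) and 0 higher. Over all described genes 3.76% were lower and 2.62% higher. Of the 4 genes, 2 are copper proteins. Copper transporter 6-like (Ma02_g05010) was at 209 and 70.8 FPKM in leaf and 17.4 and 2.63 FPKM in root, 2.95-fold (2.41 to 3.64) and 6.62-fold lower (2.57 to 21.7). The copper chaperone CCH (Ma06_g18740) was at 1348 and 386 FPKM in leaf and 706 and 339 FPKM in root, one of the most abundant shared genes in leaf. A metal-nicotianamine transporter of the YSL type (Ma04_g31340) was at 149 and 51.4 FPKM in leaf and 45.0 and 16.6 FPKM in root. The fourth was a ferredoxin-like gene, an iron-sulfur electron carrier, which the search terms caught. Outside that list, a ZINC INDUCED FACILITATOR-like carrier (Ma06_g00770) was higher in both, at 1.24 and 17.2 FPKM in leaf and 8.47 and 19.4 FPKM in root. A molybdate transporter (Ma03_g14710), named after its values were seen, was at 4.07 and 0.35 FPKM in leaf and 8.03 and 0 FPKM in root. Molybdate feeds the cofactor of nitrate reductase. On 49 and 0 counts the transporter was 16.4-fold lower in root with the floor of 3 counts. The lower limit of the counting interval of that fold was 12.8.

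On the list of defence proteins, 8 of 85 genes at 2 FPKM were lower in both tissues (9.41%) and 0 were higher, beside 3.76% lower and 2.62% higher over all described genes and 0.824% and 0.626% over all 19179 genes. The median of the mean log2 change over the 85 genes was 0.05. Of these, 5 were described as mannose/glucose-specific lectins, sugar-binding proteins that banana accumulates. The most abundant (Ma09_g10440) was at 117 and 21.0 FPKM in leaf and at 6270 and 1869 FPKM in root. Another (Ma09_g10460) was at 145 and 15.8 FPKM in leaf and at 3459 and 692 FPKM in root, 9.30-fold (6.19 to 14.5) and 5.01-fold lower (4.72 to 5.33). The lectin gene Ma09_g10450 was at 35.8 and 7.30 FPKM in leaf and 2657 and 868 FPKM in root. Root levels were far above leaf levels under both supplies for these genes. A copy of equal coding length (Ma09_g10470) was at 34.1 and 0 FPKM in leaf and 2652 and 742 FPKM in root. All 5 lectin genes had fractional expected counts in some library, and how fragments were divided among them is uncertain.

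A Bowman-Birk type inhibitor (Ma05_g09330), which blocks digestive serine proteases, was at 37.6 and 2.37 FPKM in leaf and 96.1 and 9.60 FPKM in root. It was 15.9-fold lower in leaf (5.13 to 79.9) and 10-fold lower in root (5.67 to 19.4). Chitinase-like protein 1 (Ma08_g24190) was at 3.92 and 0 FPKM in leaf and 107 and 12.3 FPKM in root, and a pathogenesis-related protein 1 gene (Ma03_g08140) at 2.60 and 0.52 FPKM in leaf and 39.2 and 3.21 FPKM in root. Leaf evidence for the last gene was thin, at 5 and 1 counts, where the interval of the fold ran from 0.557 to 235. Linoleate 9S-lipoxygenases start the oxidation of polyunsaturated fatty acids, and a pair of these genes was shared. One (Ma06_g26850) was at 170 and 1.26 FPKM in leaf and 320 and 120 FPKM in root, the other (Ma06_g26890) at 22.6 and 0.92 FPKM in leaf and 958 and 380 FPKM in root. Both differed far more in leaf, by 134-fold (79.7 to 246) and 25.0-fold (13.4 to 52.7), than in root, by 2.66-fold (2.50 to 2.83) and 2.52-fold (2.44 to 2.61). Both lipoxygenase genes had fractional expected counts in some library, so some fragments may have been divided among similar copies.

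**Figure D3:**
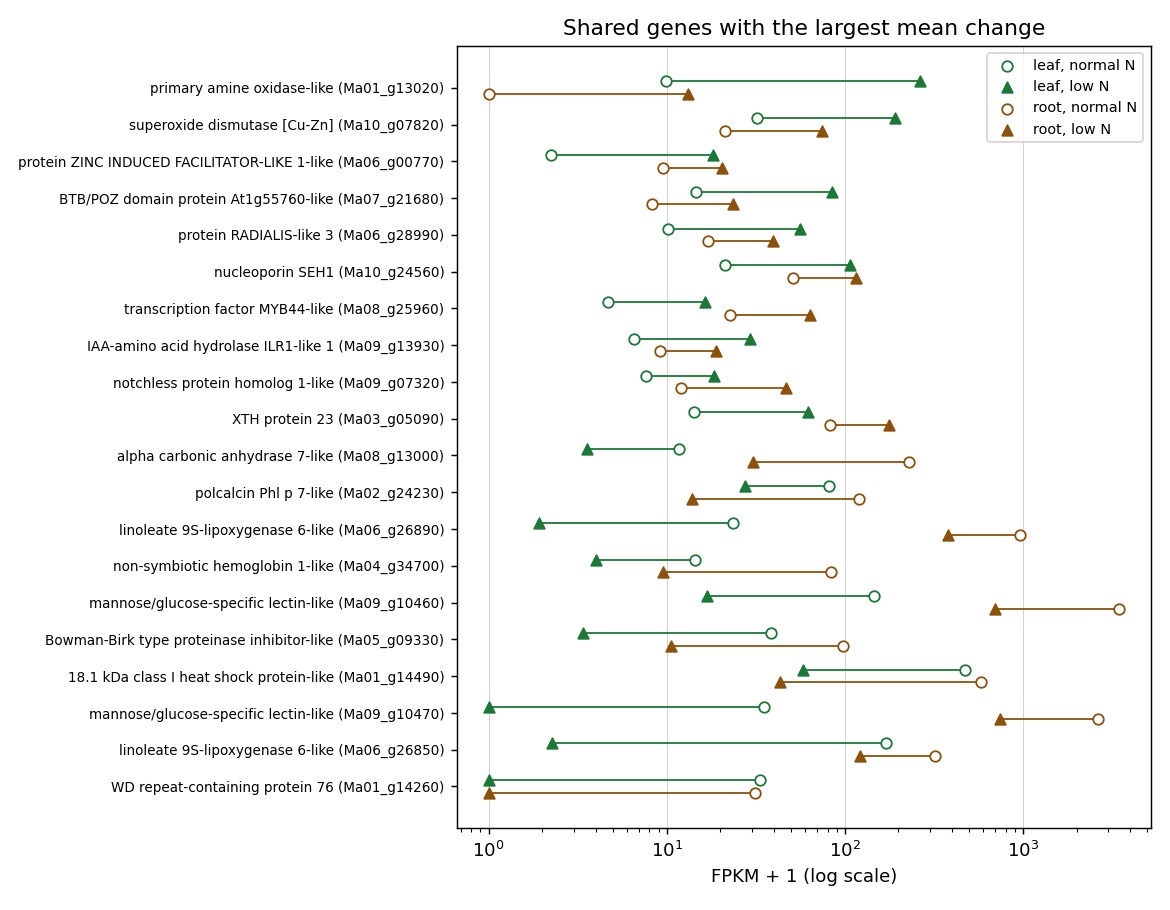
FPKM + 1 on a log axis in each library for the 10 most positive and 10 most negative mean changes among described shared genes with 10 FPKM or more in both tissues. Open circles are normal N and triangles low N, in green for leaf and brown for root, with a line joining the libraries of a tissue; amine oxidase (Ma01_g13020) stands at the top and WD repeat-containing protein 76 (Ma01_g14260) at the bottom.

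Heat shock proteins and chaperones, which keep other proteins folded, were lower in both tissues for 5 of 44 genes and higher for 1, beside 3.76% lower and 2.62% higher over all described genes. The median of the mean log2 change over the 44 genes was -0.50. An 18.1 kDa class I small heat shock protein (Ma01_g14490) was at 471 FPKM in normal-N leaf, 57.1 FPKM in low-N leaf, 577 FPKM in normal-N root and 42.3 FPKM in low-N root. With an 8.27-fold lower level in leaf (6.75 to 10.2) and a 13.7-fold lower level in root (10.9 to 17.3), it was lower by a wide margin in both. BAG family chaperone regulator 6-like (Ma10_g14770), a co-chaperone, was at 285 and 83.6 FPKM in leaf and 29.4 and 10.1 FPKM in root. The remaining 3 were small heat shock proteins whose root counts were 10 or fewer in the normal-N library, and their root intervals included 1. The exception was a dnaJ homolog (Ma01_g17650), at 0.34 and 2.42 FPKM in leaf and 15.9 and 40.1 FPKM in root, with only 1 and 7 counts in leaf.

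Late embryogenesis abundant protein Lea5-D (Ma06_g21680), of a family known from drying tissues, was at 1079 and 504 FPKM in leaf and 2305 and 206 FPKM in root, 2.14-fold (1.94 to 2.37) and 11.2-fold lower (9.85 to 12.8). Non-symbiotic hemoglobin 1-like (Ma04_g34700), which scavenges nitric oxide, was at 13.5 and 3.02 FPKM in leaf and 82.2 and 8.49 FPKM in root. A two-on-two hemoglobin (Ma07_g09620) was at 41.9 and 14.2 FPKM in leaf and 23.0 and 8.73 FPKM in root. These 2 hemoglobins were the shared genes among the 12 genes of the list of low oxygen and fermentation at 2 FPKM. They were 16.7% of that list, beside 6.37% of all described genes. Alpha carbonic anhydrase 7-like (Ma08_g13000), which interconverts carbon dioxide and bicarbonate, was at 10.8 and 2.55 FPKM in leaf and 227 and 29.4 FPKM in root. A salt stress-induced protein (Ma10_g09830), named after its values were seen, had the most negative root change of all shared genes, at 834 and 14.3 FPKM in root, with 5.05 and 1.13 FPKM in leaf. Its 9 and 2 leaf counts left an interval of 0.927 to 42.6.

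Transcription factors were shared in small numbers, read here beside the 6.37% of all described genes that were shared. The NAC list, whose members often act in senescence and stress, had 1 gene higher and 2 lower of 27 (11.1% together). NAC29-like (Ma06_g33980) was the most abundant of them, at 113 and 316 FPKM in leaf and 17.1 and 51.2 FPKM in root, with a 2.80-fold (2.52 to 3.11) and a 2.99-fold (2.30 to 3.91) higher level under low N. NAC72-like (Ma04_g19710) was at 14.4 and 3.94 FPKM in leaf and 9.93 and 2.08 FPKM in root. Of the 46 WRKY genes 44 were higher in leaf, beside 54.5% of all described genes, which the authors had filtered for change. In root 11 of the 46 were lower, beside 18.9% of described genes, and 10 were thus called in opposite directions, beside 3.85%. WRKY26 (Ma03_g09720) was the 1 gene of the list higher in root, with log2 changes of 1.02 in leaf and 1.02 in root that just passed the limit. A pair of MYB44-like genes was higher in both tissues, out of 14 MYB genes. The one with the larger change (Ma08_g25960) was at 3.70 and 15.4 FPKM in leaf and 21.6 and 63.1 FPKM in root. Homeobox-leucine zipper factors went either way, HOX21-like (Ma01_g05860) at 1.10 and 7.47 FPKM in leaf and 2.34 and 11.7 FPKM in root, and HOX19-like (Ma06_g26230) at 10.5 and 4.39 FPKM in leaf and 42.5 and 15.3 FPKM in root. RADIALIS-like 3 (Ma06_g28990), a small MYB-related protein, was at 9.12 and 55.1 FPKM in leaf and 16.1 and 38.7 FPKM in root.

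Ethylene-responsive factors, of the AP2/ERF family, had 2 genes higher and 1 lower of 38, 7.89% together beside 6.37% of all described genes. CRF1-like (Ma09_g05160) was at 15.2 and 33.6 FPKM in leaf and 1.82 and 5.46 FPKM in root. ERF109-like (Ma10_g30050) was at 0.97 and 4.86 FPKM in leaf and 20.5 and 51.9 FPKM in root, and ERF039-like (Ma04_g33540), which was lower, at 3.24 and 0.98 FPKM in leaf and 22.6 and 8.51 FPKM in root. For ERF039-like the 10 and 3 leaf counts left an interval of the fold of 0.854 to 18.8. Zinc finger factors were lower in 2 of 37 cases (5.41%), beside 3.76% of all described genes. Among the 2 was zinc finger protein 7-like (Ma10_g11760), at 25.4 and 4.56 FPKM in leaf and 21.4 and 8.12 FPKM in root. ELF4-LIKE 3 (Ma10_g17670), related to a component of the circadian clock in Arabidopsis, was one of the most abundant genes on the higher side, at 74.5 and 160 FPKM in leaf and 26.3 and 57.5 FPKM in root. Its folds were almost the same in the tissues, 2.15 in leaf (1.67 to 2.78) and 2.19 in root (1.45 to 3.37).

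Calcium signalling genes were lower in 3 of 34 cases (8.82%) and higher in 0, beside 3.76% lower and 2.62% higher over all described genes. The calcium-binding protein CML29 (Ma03_g07180) was at 52.01 and 11.8 FPKM in leaf and 9.15 and 0.96 FPKM in root. A CBL-interacting protein kinase (Ma11_g04530), of a family that relays calcium signals to ion channels, was at 77.1 and 26.6 FPKM in leaf and 16.2 and 4.78 FPKM in root. The third gene (Ma11_g02550) carried a KEGG description that names calmodulin beside unrelated proteins, and was at 19.9 and 4.83 FPKM in leaf and 4.52 and 1.45 FPKM in root. Polcalcin Phl p 7-like (Ma02_g24230), a small calcium-binding protein that the list did not catch, was at 80.4 and 26.3 FPKM in leaf and 119 and 12.8 FPKM in root. Polcalcin was 3.06-fold lower in leaf (1.96 to 4.91) and 9.32-fold lower in root (5.36 to 17.5), intervals that did not overlap. Receptor kinases, the largest list (112 genes), had 1 shared gene in each direction, 1.79% together beside 6.37% of all described genes. Of the 112, 89 were higher in leaf, beside 54.5% of described genes. With the BLAST and KEGG text of each gene searched together, 3 of 143 genes were higher and 7 lower in both tissues, 6.99% together. The lower gene of the 112 (Ma07_g26520) was at 260 and 102 FPKM in leaf and 29.4 and 2.73 FPKM in root, 2.54-fold (2.38 to 2.72) and 10.8-fold lower (7.59 to 15.8).

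Ubiquitin and F-box genes, which mark proteins for degradation, were higher in both tissues in 3 of 111 cases and lower in 0. The 3 were 2.7% of the list, near the 2.62% higher over all described genes, of which 3.76% were lower. With the BLAST and KEGG text of each gene searched together, 4 of 129 genes were higher and 4 lower. Of the 111, 84 were higher in leaf, beside 54.5% of described genes. A BTB/POZ protein (Ma07_g21680) was at 13.5 and 83.6 FPKM in leaf and 7.32 and 22.6 FPKM in root, 6.12-fold (4.62 to 8.22) and 3.08-fold higher (2.05 to 4.75). Nucleoporin SEH1 (Ma10_g24560), a part of the nuclear pore, was at 20.3 and 106 FPKM in leaf and 50.1 and 115 FPKM in root. The notchless homolog (Ma09_g07320), known in yeast for ribosome assembly, was at 6.65 and 17.4 FPKM in leaf and 11.1 and 45.6 FPKM in root. SEH1 therefore differed more between supplies in leaf and the notchless homolog more in root.

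The list of gibberellin, abscisic acid, cytokinin and jasmonate genes had 4 of 35 lower in both tissues (11.4%) and 0 higher. Over all described genes 3.76% were lower and 2.62% higher. A pair of the 4 were cytokinin response regulators. ARR8-like (Ma03_g08570), of the type that dampens cytokinin signalling, was at 39.6 and 6.14 FPKM in leaf and 15.6 and 4.93 FPKM in root, 6.47-fold (3.66 to 12.3) and 3.18-fold lower (1.63 to 6.68). A B-type regulator (Ma09_g27150) was at 27.3 and 11.6 FPKM in leaf and 9.60 and 2.88 FPKM in root, and another (Ma04_g29730) missed the limit in root by little, with a log2 change of -0.9969 there. The other pair were abscisic stress ripening genes. One of them (Ma11_g10340) was at 456 and 71.5 FPKM in leaf and 909 and 423 FPKM in root. None of the 19 auxin genes at 2 FPKM was shared, although an IAA-amino acid hydrolase (Ma09_g13930), which frees auxin from its conjugates and was not caught by that list, was at 5.51 and 28.5 FPKM in leaf and 8.13 and 17.9 FPKM in root.

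Cell wall genes were the list with the most shared genes on the higher side, 4 of 52 against 1 lower. Over all described genes 2.62% were higher and 3.76% lower in both tissues. A xyloglucan endotransglucosylase/hydrolase (Ma03_g05090), which cuts and rejoins wall xyloglucan, was at 13.3 and 60.9 FPKM in leaf and 81.9 and 175 FPKM in root. Its folds were 4.60 (3.32 to 6.5) and 2.13 (1.86 to 2.46). Leucine-rich repeat extensin-like protein 6 (Ma07_g01410) was at 2.95 and 8.34 FPKM in leaf and 30.5 and 142 FPKM in root. A second gene of that family and a polygalacturonase completed the 4. The fasciclin-like arabinogalactan protein 12 gene (Ma06_g34630) was the one lower on the list, at 7.27 and 2.13 FPKM in leaf and 150 and 34.6 FPKM in root. A glycine-rich cell wall structural protein-like gene (Ma04_g38810), which the list did not catch, was also lower. That gene was at 30.65 and 11.07 FPKM in leaf and 69.36 and 21.27 FPKM in root, 2.78-fold (1.62 to 4.96) and 3.27-fold lower (2.27 to 4.81). Dirigent protein 21-like (Ma11_g09770), of a family that guides lignan coupling, was at 5.67 and 1.43 FPKM in leaf and 33.0 and 0.89 FPKM in root. Trehalose-phosphate synthase 9 (Ma03_g04770), of a sugar-signalling family, was at 17.7 and 46.5 FPKM in leaf and 19.6 and 46.0 FPKM in root, nearly the same level in both tissues under either supply. Tubulins, the subunits of microtubules, were the shared genes of the cell cycle list, with 2 of 39 lower (5.13%), beside 3.76% of all described genes. An alpha tubulin (Ma07_g08050) was at 4.69 and 1.77 FPKM in leaf and 282 and 136 FPKM in root, and tubulin beta-7 (Ma04_g32830) at 5.13 and 0.06 FPKM in leaf and 29.8 and 9.82 FPKM in root. A flavone O-methyltransferase (Ma03_g28520) was mainly a root transcript, at 4.85 and 1.09 FPKM in leaf and 316 and 71.7 FPKM in root. The cytochrome P450 78A4-like gene (Ma06_g22120) was higher in leaf, at 38.1 and 7.71 FPKM there and 8.68 and 2.89 FPKM in root. A putative glycerol-3-phosphate transporter (Ma11_g04090) was at 24.2 and 9.80 FPKM in leaf and 81.3 and 34.7 FPKM in root, the only shared gene of 15 on the list of phosphate and SPX genes.

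Proteases were shared in both directions. The aspartic proteinase nepenthesin-1 (Ma11_g04120) was at 0.47 and 6.19 FPKM in leaf and 14.1 and 67.9 FPKM in root, 13.1-fold (4.15 to 66.1) and 4.79-fold higher (3.84 to 6.04). A nepenthesin-1-like gene (Ma08_g02730) was lower, at 373 and 71.9 FPKM in leaf and 29.9 and 12.4 FPKM in root. The first was thus mainly a root transcript and the second mainly a leaf transcript. On the list of proteolysis, 1 gene was higher and 2 were lower in both tissues among 36, and the other lower gene was the Bowman-Birk inhibitor rather than a protease. Shared genes were 8.33% of that list, beside 6.37% of all described genes.

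**Figure D4:**
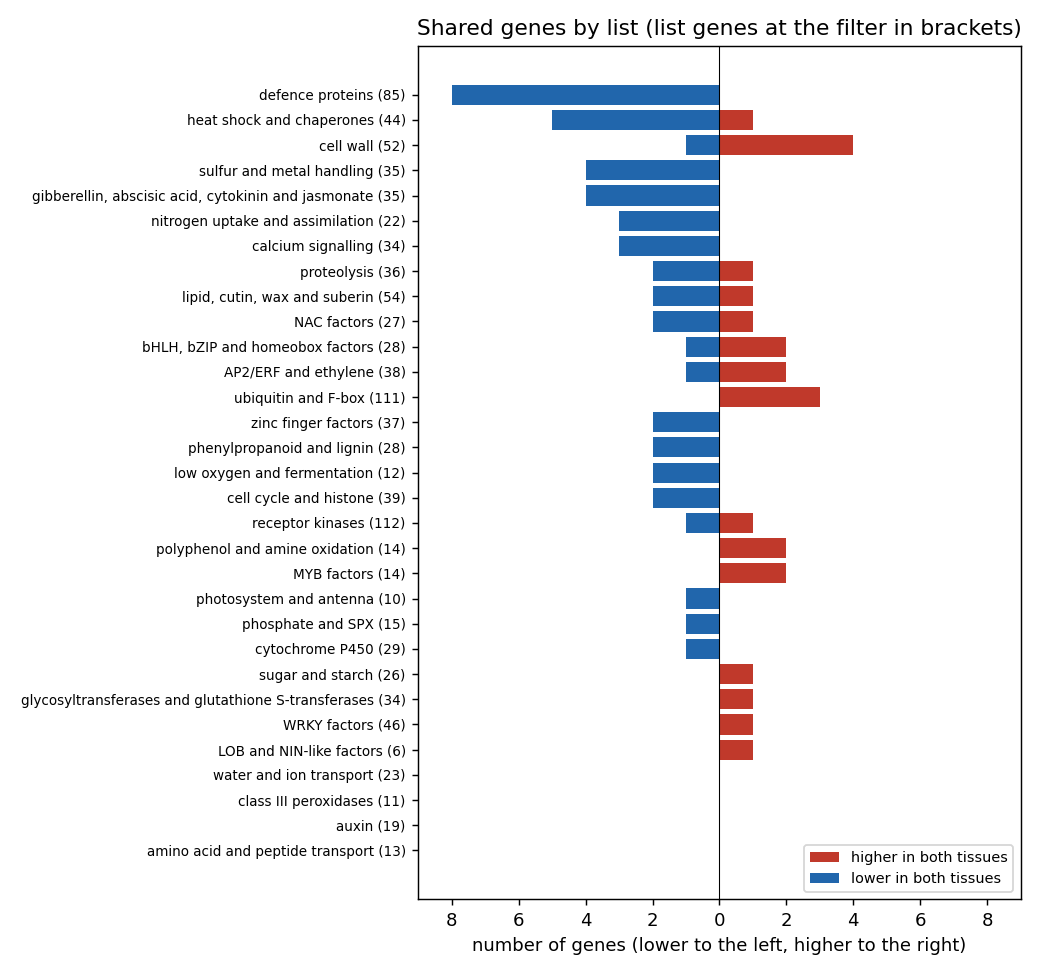
Number of shared genes in each of 31 gene lists, lower in both tissues to the left and higher in both to the right, with the number of list genes at 2 FPKM or more in both tissues in brackets. Defence proteins have 8 lower genes and heat shock proteins and chaperones 5, and the cell wall list has 4 higher.

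Some shared genes of the chloroplast were abundant in leaf and present in root at only a few fragments. Oxygen-evolving enhancer protein 3-1 (Ma04_g30440), a subunit of photosystem II, was at 685 and 216 FPKM in leaf and 3.90 and 0.97 FPKM in root, where it had 12 and 3 counts. A ferredoxin-like gene (Ma01_g23400) was at 716 and 317 FPKM in leaf and 7.32 and 2.09 FPKM in root. A light-regulated protein gene (Ma06_g30390) was at 204 and 74.8 FPKM in leaf and 4.16 and 1.19 FPKM in root, where 7 and 2 counts left an interval of the fold of 0.669 to 34.7. Their root levels moved with the summed leaf markers in root, 313 and 175 FPKM, of which 11 and 9 of 32 were at 0. Their part in the result was not tested. Of the 10 photosystem and antenna genes at 2 FPKM in both tissues, 9 were lower in leaf. In root 3 were higher and 1 lower, and 2 of the 10 had opposite calls. Over all 19179 genes 5.61% were lower in leaf, and in root 2.89% were higher and 4.64% lower. Unlike those, the genes of the list had been filtered for change by the authors.

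The shared genes tended to be short and weakly covered, which is not independent of the rule. For Ma11_g13180, with a coding length of 84 bases, 0 and 1 counts in each tissue gave log2 changes of 2.56 in leaf and 2.48 in root. Their median coding length was 556 bases for those higher and 490 bases for those lower, beside 1120 bases over all 19179 genes. In 111 of them the higher library of a tissue had fewer than 10 counts, which is 43.3% of those higher and 37.3% of those lower, beside 9.39% of all 19179 genes. Fractional expected counts, in contrast, were found in 30.0% of those higher and 35.4% of those lower, beside 42.7% of all genes. Under normal N the root level was at least 2-fold above leaf on the (FPKM + 1) scale for 35.0% of those higher and 35.4% of those lower, close to 33.8% of all genes. The leaf level was at least 2-fold above root for 17.5% and 25.3%, beside 18.1% of all genes.

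Genes with and without an informative description differed in length and depth. Descriptions exist only for genes that the authors had filtered for change in leaf or root. Depth and intervals are thus tied in advance to having one. The authors' deposited tables, the only source of descriptions, held 159 of the 278 shared genes and described 134. The 134 had a median coding length of 932 bases, and in 120 of them (89.6%) the 95% counting intervals of both folds lay on one side of 1. The 144 others had a median coding length of 258 bases, and 98 of them had fewer than 10 counts in the higher library of a tissue. Both intervals lay on one side of 1 in 41 of these (28.5%). By the intervals alone, without the limit on size, 1089 of all 19179 genes were above 1 in both tissues (5.68%) and 687 below (3.58%), of which 64 and 97 were shared genes. In both of the authors' deposited tables with the same direction stood 38 higher and 58 lower genes, and 31 and 53 of these were among the shared genes.

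**Figure D5:**
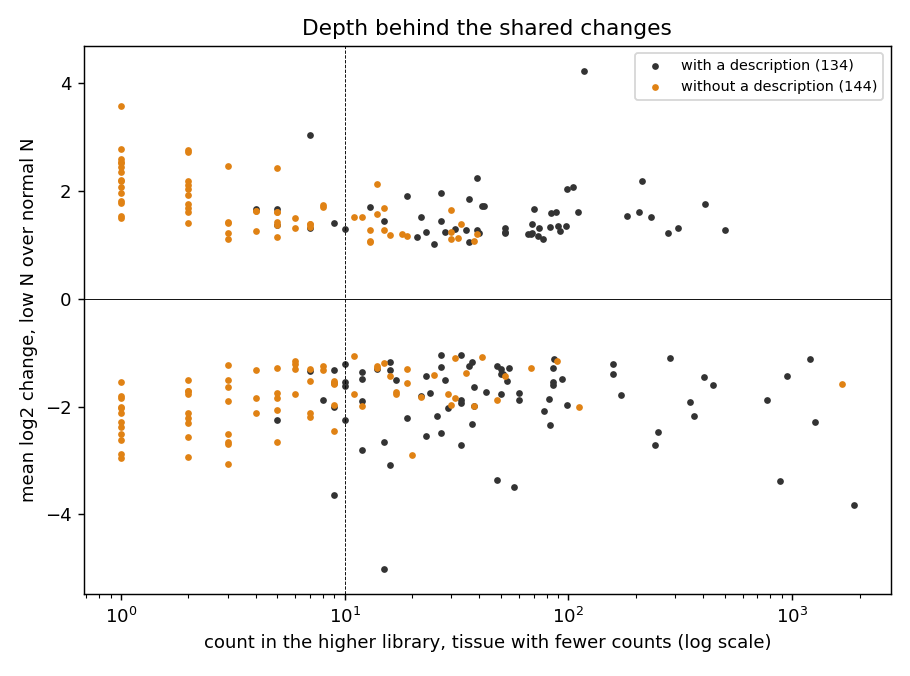
Mean log2 change of leaf and root (y axis) against the count in the higher library of the tissue with fewer counts (x axis, log scale) for the 278 shared genes, split by whether the authors' deposited tables describe them. Of the 144 without a description, 98 lie left of the dashed line at 10 counts, against 13 of the 134 with one. Descriptions exist only for genes that the authors had filtered for change, so the split is not independent of depth.

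At the limit of size there was no gap. Just inside on the higher side, Ma01_g03960 had log2 changes of 1.00 in leaf and 1.15 in root, Ma03_g24620 1.39 and 1.00, and Ma09_g20740 1.32 and 1.01. Just inside on the lower side, Ma09_g00880 had -1.13 and -1.0019, Ma08_g22850 -1.0036 and -2.18, and a p24 cargo receptor gene (Ma08_g18200) -1.01 and -1.07. Just outside lay the amino acid transporter and the response regulator named above, Ma02_g07940 at 2.72 and 0.99, Ma06_g35940 at 1.58 and 0.99, Ma03_g08110 at -0.9970 and -1.97, and a beta-glucosidase (Ma06_g13880) at -0.9987 and -1.11. Shared genes that went undetected in both low-N libraries numbered 22, and 18 of the higher ones were undetected in both normal-N libraries. Only 1 of each carried a description. WD repeat-containing protein 76 (Ma01_g14260), with a coding length of 144 bases, had 15 counts in each normal-N library and 0 in both low-N libraries. With the floor of 3 counts it was 4.98-fold lower in leaf and 5.02-fold lower in root. The lower limits of the counting intervals were 3.57 in leaf and 3.6 in root. FK506-binding protein 4-like (Ma08_g11930) had 0 counts in both normal-N libraries, 14 in low-N leaf and 7 in low-N root.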

How the data were processed

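Messenger RNA was captured on poly-T beads, broken into fragments and primed with random hexamers, per the labels' protocols, which state no strand-marking step. BWA and Bowtie are named, without role, per the submitters' processing notes. For the counting tool, genome build and annotation, a name is not given in the sources used here. The authors deposited for each of 4 libraries an expected count and an FPKM value per gene, per the file headers, and an absent gene was read as 0. Of the genes, 94.4% had a length divisible by 3, taken as coding length. The authors deposited for each tissue a filtered table with a log2 ratio and an FDR (a p-value adjusted by the authors), which compares 1 library with 1 library. Descriptions came from these tables (BLAST text, or KEGG text where it was uninformative). No gene ID (0 of 31873) matched the reference gene table, so neither coordinates nor sequences are given.

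Ratios used a pseudocount of 1 FPKM, which understates the change of weakly expressed genes. Folds are ratios of rounded expected counts over library totals with exact Clopper-Pearson 95% intervals. Where a library had 0 counts, a floor of 3 counts stands in for it. The fold with the floor holds no counting error of the other library and can exceed the lower limit of the interval. The blocked test was edgeR 4.0.16 (TMM, filterByExpr, quasi-likelihood, Benjamini-Hochberg adjustment over all genes tested), with DESeq2 1.42.0 and limma 3.58.1 as alternatives. It was also run on simulated counts with the same planted fold in leaf and root. The leaf and root changes of these data had a Pearson r of 0.06, so that run cannot show how the test behaves here. The p-values of the blocked test treat leaf and root as the only replication.

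The genes and the 31 lists were chosen with earlier results of these data known, and lists hold only genes from the filtered tables, so a list's count is not independent evidence. A count also depends on the text searched. With the BLAST and KEGG text of each gene searched together, defence proteins had 1 higher and 10 lower of 94. The cell cycle list then had 2 higher and 2 lower of 69, and the amino acid and peptide transporters 1 higher of 15. Several lists kept their counts. Named genes were the 10 most positive and 10 most negative described changes at 10 FPKM in both tissues, up to 2 per list and direction, the 3 per side nearest the limit, the 5 most abundant per direction, and all nitrogen genes at 10 FPKM. Other genes named were chosen after their values were seen. They are the ureide and molybdate carriers, the GABA transporter, alanine aminotransferase, CCH, the salt stress-induced protein, the ferredoxin-like and light-regulated genes, the chitinase-like and pathogenesis-related genes, the B-type regulator that was lower in both tissues, the gene with the calmodulin text, the glycine-rich cell wall gene, and the FK506-binding protein.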

Additional observations from a re-analysis of the deposited data

Results flagged for a closer look

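Of the 22 nitrogen uptake and assimilation genes at 2 FPKM or more in both tissues, 5 were past the size limit in opposite directions. They were higher under low N in leaf and lower in root, a call made for 3.85% of described genes and 0.85% of all genes. The difference between the tissues was not tested, since each tissue has 1 library per supply. The leaf minus root log2 change was 6.34 for the nitrate transporter-activating protein Ma09_g01900 and 5.84 for its relative Ma06_g13610, which was at 54.5 and 255 FPKM in leaf and 343 and 26.7 FPKM in root. It was 4.46 for the nitrate transporter 2.1-like gene Ma08_g13030, 4.21 for the nitrate reductase Ma05_g05580 and 2.38 for the NRT1/PTR family 4.6-like gene Ma07_g08710.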

How the results depend on the processing

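The counts of genes higher and lower in both tissues were 120 and 158. They were 178 and 213 with a pseudocount of 0.1 and 177 and 217 with no filter on level. They were 21 and 53 with a pseudocount of 5, 37 and 59 at 10 FPKM, 29 and 62 at a log2 size of 1.5, and 12 and 21 at a size of 2. CPM values gave 76 and 107, of which 61 and 94 were among the main ones. Under alternatives chosen after seeing the data they were 64 and 97 with both counting intervals off 1, 68 and 99 with 10 counts or more in the higher library of each tissue, and 84 and 102 with whole expected counts in all 4 libraries. Median-ratio scaling gave 104 and 184, of which 100 and 146 were among the main ones, and moved the leaf median of all genes from 0.12 to -0.08. The blocked test in edgeR called 0 and 0 genes. It called 2 and 6 at an adjusted p under 0.1, 5 and 19 with library totals only and 30 and 85 with no filter on low counts, and DESeq2 called 2 and 17. The cause was not tested. No named shared gene changed sign under the scaling and pseudocount alternatives, but this was fixed in advance. A pseudocount cannot reverse a ratio within a tissue, and each change was at least 1 in size. The median-ratio factors were close within a tissue, 0.828 and 0.963 in normal-N and low-N leaf and 1.17 and 1.12 in root. Of the other named genes, with opposite changes in leaf and root, the mean log2 change of Ma09_g01900 went from 0.20 to -0.37 with a pseudocount of 5, and that of Ma07_g08710 from 0.06 to -0.0038 with median-ratio scaling. Leaving out a library gave no value, because a tissue then has no ratio and the blocked fit no residual degree of freedom. The tissue block pairs the libraries by tissue, and without it edgeR also called 0 and 0 genes.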
